A study of Mus musculus with 6 samples.

Results

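The respiratory chain of the inner mitochondrial membrane is built from nuclear-encoded and mitochondrially encoded proteins, and its nuclear-encoded subunits were examined here in the hippocampus of mice that lack inhibitor-1. The set comprised 38 subunit genes of complexes I to IV and cytochrome c, and its members were all probe sets that the platform annotation assigns to just 1 of these symbols. There were 82 such probe sets for 37 of the 38 genes, out of 45037 probe sets on the array. Cox7b, which encodes a complex IV subunit, had none in the annotation used here and was not analysed. Of the 82 probe sets, 74 passed the filter on dim probe sets, and these 74 held at least 1 probe set for each of the 37 genes. Complex I contributed 18 genes, complex II 4, complex III 6 and complex IV 8 of its 9, and the remaining member was Cycs.

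Hippocampal total RNA of 3 inhibitor-1 knockout (KO) samples and 3 wild-type (WT) samples was hybridised to 1 one-colour array each. Inhibitor-1, the product of Ppp1r1a, restrains protein phosphatase 1 once protein kinase A has phosphorylated it. Genotype, tissue and a replicate number are what the labels record. Strain, age, sex, the deleted part of the gene, any pooling and whether each array stands for its own animal are not given in the sources used here, so the p-values rest on array-to-array spread that could be technical.

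Complex I takes electrons from NADH and complex II takes them from succinate, and both pass them to ubiquinone. Complex III moves them on to cytochrome c, and complex IV hands them to oxygen. Complexes I, III and IV pump protons as they do so, and ATP synthase uses the resulting gradient. Neurons depend heavily on this pathway for the ATP that restores ion gradients after synaptic activity and firing.

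The targeted gene went with the labels on all arrays: Ppp1r1a had intensities of 272, 249 and 347 in KO and 9061, 8370 and 10345 in WT (log2 change -4.93, limma adjusted p = 3.52e-07). All 9 markers of hippocampal excitatory neurons were measured, and their summed intensity was 152814 to 159893 in KO and 162390 to 180309 in WT, without overlap. Camk2a supplied most of that sum (92973 to 98599 in KO and 101473 to 114397 in WT), 3 of the 9 had a log2 change above 0, and the mean log2 level of the 9 overlapped, at -0.070, 0.032 and -0.045 in KO and 0.031, -0.023 and 0.075 in WT. The 7 tested of 8 oligodendrocyte markers also summed to less in KO (297654 to 309840, against 323475 to 348965 in WT), with Mbp as the brightest (132413 to 154756 in KO and 142188 to 160315 in WT), 2 of the 7 above 0 and a mean log2 level that overlapped, at -0.042, -0.14 and -0.014 in KO and 0.18, 0.034 and -0.024 in WT. Mobp, Mag and Fa2h, at -0.20, -0.22 and -0.50, had an unadjusted limma p under 0.05, against 4.69% of all genes. Of 7 interneuron markers, 1 was above 0 and 6 below, with a median log2 change of -0.15. Their mean log2 level overlapped, at 0.065, -0.097 and -0.12 in KO and 0.11, 0.094 and -0.054 in WT. The dim Alas2, the 1 tested marker of red blood cells, had a change of 0.92 (SE 0.31). The summed level of 9 choroid plexus and ependymal markers was 221637 to 268734 in KO and 199054 to 281135 in WT. Ttr supplied most of that sum (192773 to 216121 in KO and 181791 to 242763 in WT), and its log2 change was -0.019. The mean log2 level of the 9 was -0.25, 0.58 and 0.38 in KO and -0.87, 0.05 and 0.11 in WT. Of these choroid markers 8 of 9, and of the markers of meninges and fibroblasts 7 of 7, had a log2 change above 0, with medians of 0.59 and 0.46. Outside the oligodendrocyte list, the markers with an unadjusted limma p under 0.05 were Camk2a, Sst, Kcnj13, Cldn2, Ogn, Col1a2, Igf2 and Alas2. Beta-actin probe sets at the 3' end gave 1.18 to 1.21 times the signal of those at the 5' end in KO and 1.24 to 1.30 times in WT. The part of these differences in the values below was not tested, and in whole tissue fewer cells of a type and less RNA per cell cannot be told apart. Over all 27022 tested probe sets, limma called 3 at an adjusted p under 0.05, or 0.0111% of them.

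Promoter sequence is shown for 5 members that the results below return to: Ndufs8 and Ndufa5 of complex I, Cox8a of complex IV, and Sdha and Sdhd of complex II. They are not a sample of the members. The windows first picked were those of Ndufs8, Cox5a, Cox8a, Ndufa10 and Cycs, which held 0 matches to any motif searched, and Ndufa5, Sdha and Sdhd took the place of Cox5a, Ndufa10 and Cycs once their matches had been seen. Each line holds the 250 bases before the annotated start of the gene, 5′ to 3′ on the strand of the gene, from RefSeq on build GRCm38.p6. All 5 genes lie on the minus strand, at chr19:3912775-3913024 for Ndufs8, chr6:24527691-24527940 for the farther upstream of the start sites of Ndufa5, chr19:7217617-7217866 for Cox8a, chr13:74350241-74350490 for Sdha and chr9:50603850-50604099 for Sdhd. Capitals mark matches, on either strand, to a pair of GCGC half-sites with any 2 bases between them, a loose form of the motif of nuclear respiratory factor 1, and to CCGGAAG, an ETS family motif.
Ndufs8: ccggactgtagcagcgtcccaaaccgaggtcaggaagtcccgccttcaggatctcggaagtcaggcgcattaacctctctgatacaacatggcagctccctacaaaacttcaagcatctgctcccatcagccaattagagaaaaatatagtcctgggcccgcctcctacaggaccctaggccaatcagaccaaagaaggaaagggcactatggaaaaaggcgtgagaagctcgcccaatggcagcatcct
Ndufa5: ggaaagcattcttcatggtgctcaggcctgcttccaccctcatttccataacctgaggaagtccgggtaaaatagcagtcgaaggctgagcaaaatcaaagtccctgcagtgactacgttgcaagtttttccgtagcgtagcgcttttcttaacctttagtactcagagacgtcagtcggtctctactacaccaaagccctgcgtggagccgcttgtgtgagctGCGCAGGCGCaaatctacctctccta
Cox8a: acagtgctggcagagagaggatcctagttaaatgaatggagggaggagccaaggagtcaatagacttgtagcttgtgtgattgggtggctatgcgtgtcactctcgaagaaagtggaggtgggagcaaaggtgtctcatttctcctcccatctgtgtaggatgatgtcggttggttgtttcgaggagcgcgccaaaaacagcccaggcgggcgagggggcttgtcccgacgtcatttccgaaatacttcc
Sdha: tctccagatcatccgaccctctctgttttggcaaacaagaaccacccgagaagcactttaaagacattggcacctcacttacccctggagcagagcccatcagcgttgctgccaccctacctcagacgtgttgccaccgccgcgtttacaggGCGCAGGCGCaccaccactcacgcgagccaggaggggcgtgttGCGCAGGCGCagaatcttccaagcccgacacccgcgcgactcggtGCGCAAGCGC
Sdhd: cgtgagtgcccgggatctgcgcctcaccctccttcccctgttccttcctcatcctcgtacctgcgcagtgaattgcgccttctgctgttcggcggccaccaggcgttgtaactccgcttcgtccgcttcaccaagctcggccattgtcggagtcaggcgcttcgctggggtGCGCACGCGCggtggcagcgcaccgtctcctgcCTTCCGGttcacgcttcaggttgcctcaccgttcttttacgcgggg

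Sdha held 3 matches to the paired half-sites, Ndufa5 held 1, Sdhd held 1 match to each motif, and neither was in the windows of Ndufs8 and Cox8a. RefSeq windows were at hand for 27 of the 37 genes, and 6 of these 27 (22.2%) held the paired GCGC half-sites, against 4.98% of the 32851 promoter windows in the table. The 6 were Cox6a1, Ndufa5, Ndufa8, Ndufv2, Sdha and Sdhd. Shares of members count genes with a match in any window, while shares of all count windows. By window, 7 of the 28 of the members held the paired half-sites. The shorter ETS motif was in 3 of 27 (11.1%), namely Cox6a1, Ndufs3 and Sdhd, against 6.91% of all windows, and these shares are a description of the letters alone. The pair of half-sites with AT between them, which is a case of the looser form, was in 1 of the 27, Cox6a1 (3.70%), against 0.782% of all windows.

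Respiratory chain transcripts differed little between KO and WT hippocampus at the probe set that stands for each gene, the one with the highest mean over all arrays. None of the 37 genes and none of the 74 probe sets passed the threshold, and the lowest limma adjusted p of any of them was 0.986. Only 3 of all 27022 tested probe sets (0.0111%) passed it, so a count of 0 does not set the members apart. At the unadjusted threshold of 0.05, 1 of the 37 genes passed, Cox8a (2.70%), against 4.69% of all 12484 genes represented in the same way. The log2 change, KO minus WT, had a median of -0.0095 over the 37 genes, with 14 above 0 and 23 below, whereas after quantile normalization 20 were above 0 and the median was 0.0099. Over all genes the median was 0.00059, and 50.2% lay above 0. Of the 74 probe sets 36 lay above 0, against 50.9% of all tested probe sets. The median size of the change, sign aside, was 0.044 in the members and 0.104 in all genes, and the median standard error was 0.073 in the members and 0.140 in all genes. The probe sets that stand for members all lay above the median intensity of every array (540.1 to 664). The comparison with all genes was not matched for intensity.

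A change of under 0.1 on the log2 scale, in either direction, was found for 33 of the 37 genes. The other 4 were Ndufv1 (-0.12), Sdhc (-0.13), Cox8a (-0.18) and Cox7c (0.20, at a dim probe set). The 95% interval of the change lay within -0.5 and 0.5 for 36 of the 37, all but Cox7c.

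**Figure D1:**
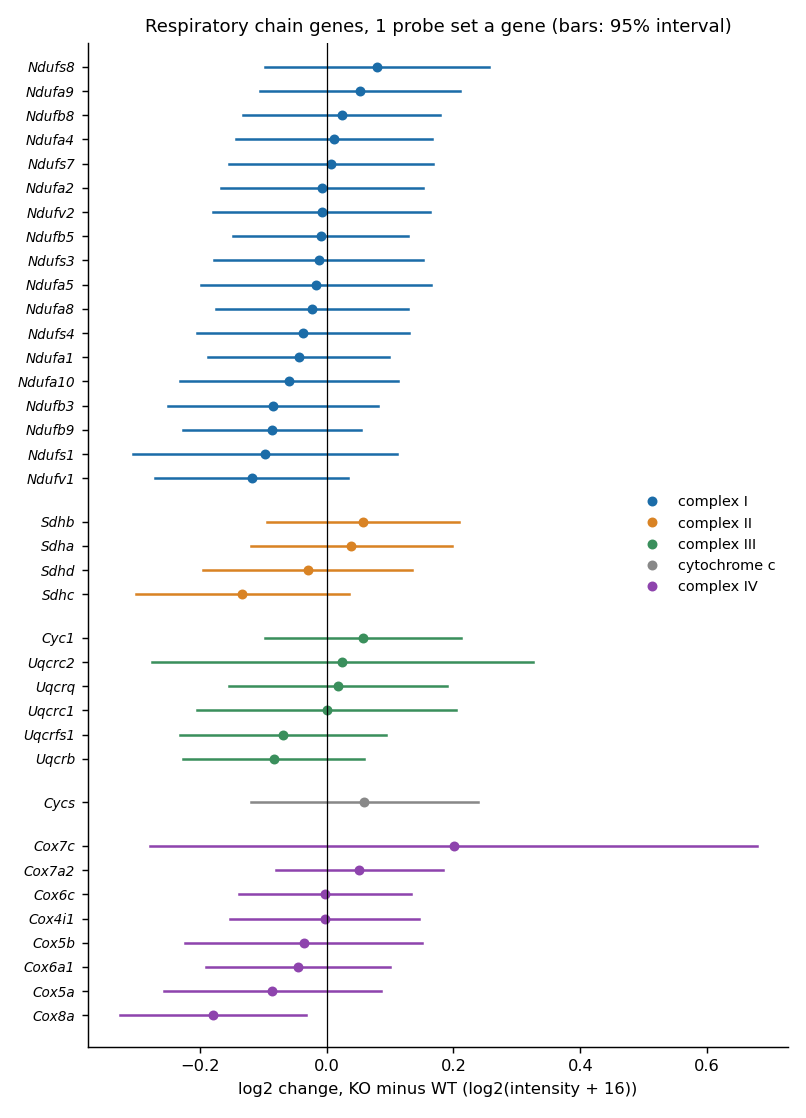
Log2 change, KO minus WT, of 37 respiratory chain genes at 1 probe set each (points), with the 95% interval from the fit over all probe sets (bars), grouped by complex. The points lie between -0.18 (Cox8a) and 0.20 (Cox7c, at a dim probe set), and the interval of Cox8a alone leaves out 0, before any adjustment.

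Within complex I, the flavin and the iron-sulfur clusters along which electrons travel lie in core subunits, though not every core subunit holds one. The 6 nuclear-encoded core subunits measured here had a median log2 change of -0.0099, with 2 above 0 and 4 below. Ndufv1, the subunit that binds NADH and flavin, had intensities of 32814, 29549 and 31893 in KO and 34917, 32293 and 35077 in WT at its brightest probe set. The groups overlap, and the log2 change of -0.12 (SE 0.07) was the lowest of the complex. The other core subunits Ndufs1, Ndufs3, Ndufs7 and Ndufv2 had changes of -0.097, -0.012, 0.0067 and -0.0076.

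Ndufs8, a core subunit with iron-sulfur clusters near the ubiquinone site, had the highest change of complex I. At its brightest probe set (1455283_x_at) the intensities were 62518, 54489 and 58261 in KO and 51281, 53652 and 61206 in WT. These overlap, and the log2 change was 0.079 (SE 0.08, 95% interval -0.10 to 0.26). The _x_at ending marks probe sets that may also bind other transcripts.

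The remaining 11 subunits, not counting Ndufa4, are accessory proteins of the membrane and matrix arms. Their median log2 change was -0.023, from -0.087 for Ndufb9 to 0.052 for Ndufa9, with 2 above 0 and 9 below. Ndufa5 and Ndufa10, both accessory subunits, had changes of -0.017 and -0.060 at the probe sets that stand for them. Ndufs4, an accessory subunit whose loss in mice causes a fatal brain disease, had a change of -0.037 (SE 0.08) at its brightest probe set. At 1418117_at it had 2932, 2974 and 2850 in KO and 2543, 2712 and 2336 in WT, with KO higher on all arrays (log2 change 0.21, SE 0.12, adjusted p = 0.986 in limma), and at 1438166_x_at it had a change of 0.013.

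Ndufa4 was named as a complex I subunit and was later assigned to complex IV. Its intensities were 67066, 60180 and 62386 in KO and 58631, 62498 and 67012 in WT, and the groups overlap almost entirely (log2 change 0.012, SE 0.07). Counted with complex IV, it left medians of -0.017 for complex I and -0.0033 for complex IV, against -0.014 and -0.020 with it in complex I.

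Complex II, succinate dehydrogenase, also serves the tricarboxylic acid cycle and is encoded wholly in the nucleus. Sdha, the flavoprotein that oxidises succinate, had 49245, 45125 and 42574 in KO and 46674, 44119 and 42351 in WT (log2 change 0.039, SE 0.07). Sdhb, the iron-sulfur subunit, had 46777, 42279 and 46181 in KO and 41788, 42243 and 45928 in WT (0.057, SE 0.07). KO and WT arrays overlap for both of these catalytic subunits.

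Sdhc and Sdhd anchor the enzyme in the membrane and form its ubiquinone site. Sdhc had 16517, 15439 and 14457 in KO and 16264, 17324 and 17255 in WT (log2 change -0.13, SE 0.08, 95% interval -0.30 to 0.04). Sdhd had 18930, 16791 and 19169 in KO and 18877, 18338 and 18735 in WT (log2 change -0.030, SE 0.07). Both anchors had a change below 0 and both catalytic subunits one above 0, with no member of the 4 past the threshold and all 4 overlapping between groups. Other probe sets of Sdha and Sdhd did not all have the sign of the brightest one: 1426689_s_at of Sdha had a change of -0.034, the dim 1433293_at of Sdha one of 0.57 (SE 0.27) and the dim 1437489_x_at of Sdhd one of 0.19 (SE 0.23).

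Complex III, the cytochrome bc1 complex, had 4 genes above 0 and 2 below, with a median log2 change of 0.0087. Cyc1, its cytochrome c1 haem subunit, had 40851, 36399 and 35457 in KO and 35408, 36113 and 36571 in WT (log2 change 0.058, SE 0.07), the highest of the complex. Uqcrb, a small ubiquinone-binding subunit, had 125754, 117681 and 123203 in KO and 123264, 125935 and 139690 in WT (log2 change -0.083, SE 0.06), the lowest. KO and WT arrays overlap for both genes. The core protein genes Uqcrc1 and Uqcrc2 had changes of 8.6e-06 and 0.025, Uqcrfs1, which encodes the Rieske iron-sulfur protein, had one of -0.069 and Uqcrq, a small subunit, one of 0.017.

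Cytochrome c, encoded by Cycs, carries electrons to complex IV and triggers apoptosis when it leaks into the cytosol. It had 43355, 40833 and 44006 in KO and 45888, 40555 and 37020 in WT, a log2 change of 0.059 (SE 0.08). The other 3 tested probe sets of Cycs lay between 0.0086 and 0.23, all above 0. KO and WT did not overlap at 1 of these, the dim 1445484_at, whose change of 0.23 had an SE of 0.24. Groups that do not overlap were found at 9.85% of all tested probe sets.

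Complex IV, cytochrome c oxidase, held the members with the highest and the lowest change of all, the highest (Cox7c) at a dim probe set. Cox8a, the smallest ubiquitous subunit, had 63104, 60130 and 56204 in KO and 64872, 67274 and 71042 in WT at 1416112_at. All 3 KO values lie below all 3 WT values, which was so of no other member at the probe set that stands for it, while 10.4% of all genes had groups that do not overlap. The log2 change was -0.18 (SE 0.07, limma adjusted p = 0.986), and the second tested probe set, 1448222_x_at, had 58436, 55539 and 55048 in KO and 58323, 63204 and 62818 in WT, with a change of -0.12 (SE 0.06).

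Cox7c had 1215, 924 and 1022 in KO and 872, 842 and 1024 in WT at its only tested probe set, 1459885_s_at. This probe set is dim, far below those that stand for the other complex IV genes. The groups overlap, and the change of 0.20 had an SE of 0.22 and a 95% interval of -0.28 to 0.68, the widest of all members. Cox4i1, a regulatory subunit that binds ATP, had a change of -0.0033, and the small subunits Cox6c and Cox7a2 had -0.0024 and 0.052. Cox5a, Cox5b and Cox6a1 had changes of -0.086, -0.036 and -0.045.

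The complexes were then set beside each other. The median log2 change was -0.014 for complex I, 0.0046 for complex II, 0.0087 for complex III and -0.020 for complex IV. The signs of these medians depend on the scaling: they were 0.0011, 0.018, 0.028 and 0.0024 for complexes I to IV after quantile normalization, and -0.024, -0.0053, -0.0013 and -0.030 with the arrays centred on their medians. On each array the level of a complex was taken as the mean over its genes of the log2 value, relative to that gene's mean over the 6 arrays. For complex I it was 0.070, -0.086 and -0.020 in KO and -0.024, -0.0049 and 0.064 in WT. For complex II it was 0.070, -0.065 and -0.030 in KO and 0.0038, -0.00027 and 0.021 in WT. KO 1 is the highest array of both complexes and KO 2 the lowest.

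For complex III the level was 0.072, -0.091 and 0.0056 in KO and -0.067, 0.024 and 0.056 in WT. For complex IV it was 0.044, -0.065 and 0.0022 in KO and -0.075, -0.014 and 0.11 in WT. In both, KO 1 is again the highest KO array and KO 2 the lowest, and WT 3 the highest and WT 1 the lowest WT array. The difference of group means, KO minus WT, was -0.024, -0.017, -0.0088 and -0.012 for complexes I to IV, while the SD among the 3 KO arrays was 0.078, 0.070, 0.082 and 0.055 and that among the 3 WT arrays 0.046, 0.012, 0.064 and 0.093. Each difference was smaller than the SD of both groups, except in complex II, where it was smaller than the SD of KO and larger than that of WT. No test of these levels is given, since the members were chosen with earlier results known.

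**Figure D2:**
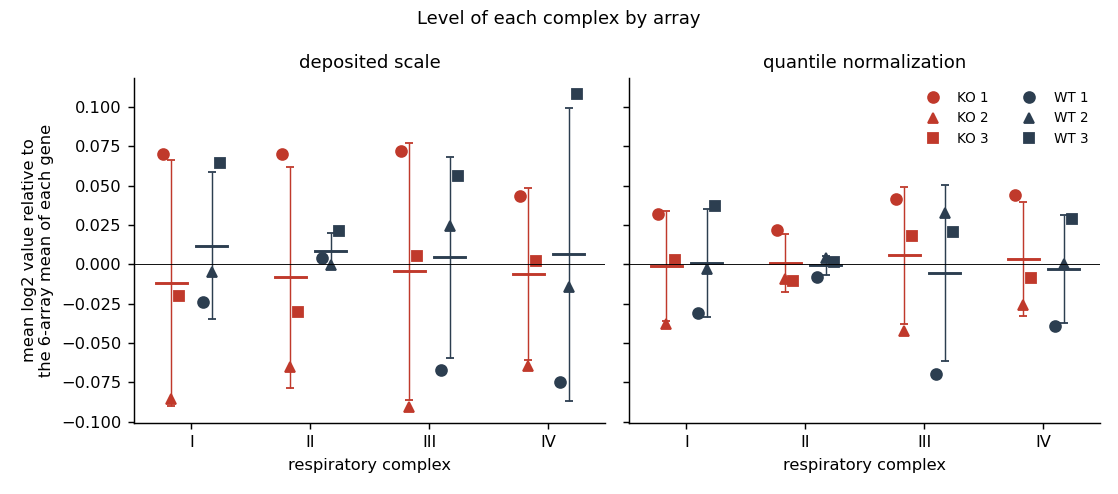
Mean log2 value of the genes of each complex on each array, relative to each gene's mean over the 6 arrays, with KO left of WT (points are arrays, horizontal lines group means, bars 1 SD, n = 3), on the deposited scale and after quantile normalization. On the deposited scale KO 1 is the highest and KO 2 the lowest KO array in complexes I to IV, and the SD is smaller after quantile normalization in both groups of all 4.

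The members differed together more from array to array than between genotypes. The number of the 37 genes above their own 6-array mean was 31, 1 and 16 in KO and 12, 15 and 30 in WT. After quantile normalization, which gives all arrays the same distribution, these numbers were 25, 14 and 20 in KO and 13, 15 and 25 in WT. The mean level of all 37 members was 0.064, -0.078 and -0.0096 in KO and -0.035, -0.0028 and 0.061 in WT on the deposited scale, and 0.034, -0.031 and 0.0032 in KO and -0.032, 0.0031 and 0.023 in WT after quantile normalization. The difference of the group means was -0.016 on the deposited scale and 0.0044 after quantile normalization, against an SD of 0.071 and 0.033 among KO arrays. The median intensity of all probe sets, with the arrays scaled to one trimmed mean, was 540.1, 663 and 664 in KO and 572, 619 and 640.4 in WT, and its part in these levels was not tested.

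Single arrays set which way the members lean. Without KO 1, 8 of the 37 genes were above 0, and without KO 2, 23 were, against 14 with all arrays. The median log2 change was -0.049 and 0.019 in these cases. On KO 1 the mean level of the choroid plexus and ependymal markers was -0.25, against 0.58 and 0.38 on the other KO arrays, and on WT 1 it was -0.87, against 0.05 and 0.11 on the other WT arrays. Whether these marker levels have a part in the lean of the members was not tested. Without replicate 1 of both groups the members' median was -0.075, and the group means of complexes I to IV differed by -0.083, -0.058, -0.083 and -0.078.

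Before any adjustment, 7 of the 74 tested probe sets (9.46%) had a p under 0.05, against 4.34% of all tested probe sets. In 4 of them KO was higher, the direction of 2.15% of all probe sets, and in 3 lower, the direction of 2.2%. The 7 belong to 5 genes, and 3 of them are probe sets of Ndufs8, which measure the same gene and are not separate evidence. KO and WT did not overlap at 9 of the 74 (12.2%), 6 with KO higher and 3 with KO lower, against 9.85% of all tested probe sets. Just 1 of the 7, that of Cox8a, is the probe set that stands for its gene. Of the 22 genes with more than 1 tested probe set, 15 had changes of one sign throughout and 7 had both signs.

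Ndufs8 had 6 tested probe sets, all above 0. At 1423907_a_at the intensities were 35726, 42978 and 41089 in KO and 31442, 30716 and 30442 in WT. The KO values are all higher and the WT values lie close together, and the log2 change was 0.37 with an SE of 0.077 (adjusted p = 0.986 in limma).

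At 1423908_at the gene had 14971, 14300 and 15887 in KO and 13002, 11434 and 13519 in WT (log2 change 0.25, SE 0.09). At 1434213_x_at it had 12074, 11599 and 12765 in KO and 9909, 10054 and 11301 in WT (0.22, SE 0.08). The groups do not overlap at these either, whereas they do at 1455283_x_at, 1434579_x_at (0.088) and the dim 1434212_at (0.58, SE 0.39). The value for Ndufs8 depends on the probe set, and with probe sets ending in _s_at or _x_at left out its change was 0.37 in place of 0.079.

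Ndufa5 had 22093, 23111 and 23019 in KO and 29298, 24760 and 28673 in WT at 1417286_at, with KO lower on all arrays (log2 change -0.27, SE 0.08, limma adjusted p = 0.986). Its other probe set, 1417285_a_at, had 34820, 32878 and 31625 in KO and 30648, 32580 and 37529 in WT, with overlap and a change of -0.017 (SE 0.08). A lower level in KO was seen with 1 of the 2 probe sets.

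Ndufa10 had 1392, 968 and 1064 in KO and 1635, 1596 and 1678 in WT at the dim 1418068_at, again without overlap (log2 change -0.53, SE 0.19). At 1448934_at it had 34235, 28885 and 33833 in KO and 34932, 32701 and 33158 in WT (log2 change -0.060, SE 0.08), where the groups overlap.

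Cox5a, a subunit of the matrix side of complex IV, had 3 tested probe sets that differ. At 1439267_x_at it had 24570, 21507 and 23773 in KO and 19263, 20236 and 15256 in WT, with all KO arrays higher (log2 change 0.36, SE 0.10). At the brightest probe set, 1448153_at, it had 66955, 62423 and 61196 in KO and 60167, 70207 and 72336 in WT (-0.086, SE 0.08). The groups overlap there and at 1415933_a_at, whose change was 0.029 (SE 0.08).

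**Figure D3:**
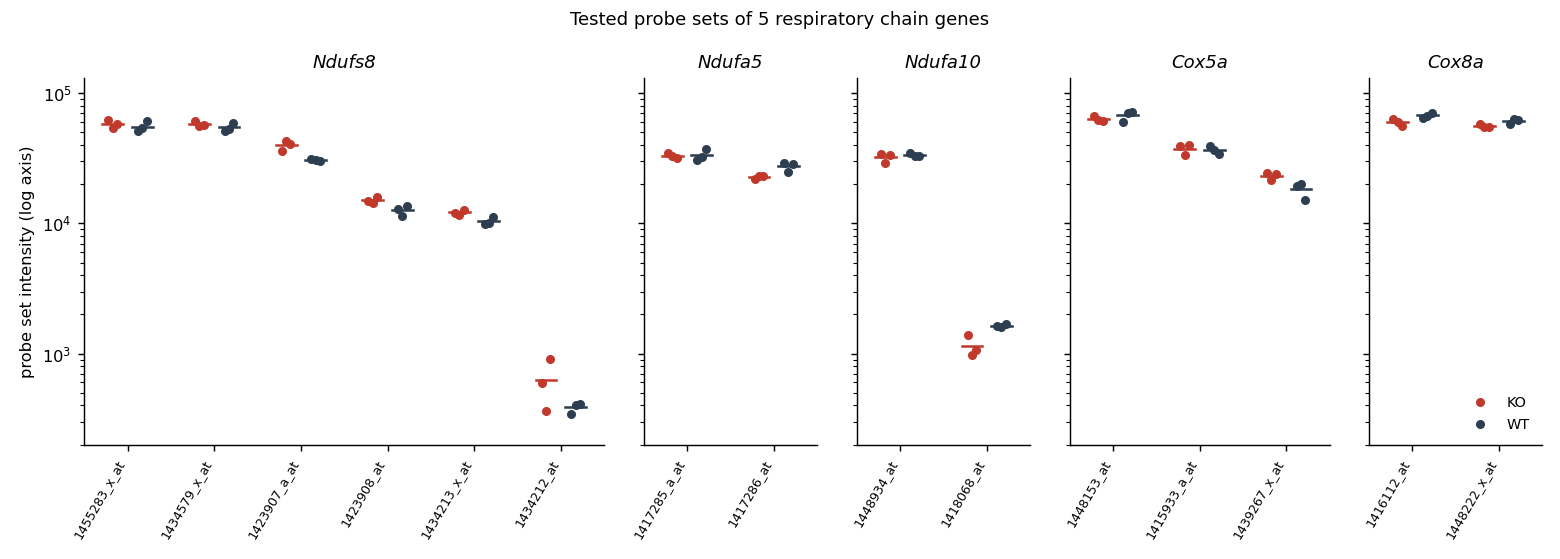
Intensity (log axis) of each tested probe set of Ndufs8, Ndufa5, Ndufa10, Cox5a and Cox8a, with KO left of WT (points are the 3 arrays of a group, lines the means). KO and WT separate at 3 of the 6 probe sets of Ndufs8 and at 1 probe set of each of the other genes, while the remaining probe sets of these genes overlap.

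The 37 members lie on 17 chromosomes. Ndufb9, Cox6c and Cyc1 share chromosome 15 with Ppp1r1a, at 357, 416 and 302 measured genes from it, and had log2 changes of -0.087, -0.0024 and 0.058. Ndufs8 and Ndufv1 are 6 measured genes apart on chromosome 19 and had changes of opposite sign (0.079 and -0.12), and Cox8a lies 110 measured genes from Ndufs8 on the same chromosome.

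Related genes of energy metabolism were read from lists of their own, 1 probe set a gene, and none of their members passed the limma threshold. Of 15 tested further complex I subunits, 4 had a change above 0 and 11 below (median log2 change -0.037), from -0.12 for Ndufb6 to 0.086 for Ndufa7, both accessory subunits. Of 5 further subunits of complexes III and IV, 2 were above 0 and 3 below (median -0.032), from -0.11 for Cox7a2l to 0.10 for Uqcr10. The 16 ATP synthase genes, which include the inhibitor Atpif1, split into 8 above and 8 below 0 (median -0.00039), from -0.069 for Atp5a1 to 0.15 for Atp5g1.

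Of 30 tested assembly factors, 16 had a change above 0 and 14 below (median 0.0061). Timmdc1, which helps build complex I, had the highest change (0.34, SE 0.19), with 1353, 1241 and 1233 in KO and 1005, 924 and 1084 in WT, and Ttc19 of complex III the lowest (-0.20). KO lay above WT on all arrays for Timmdc1, without passing the threshold, while 10.4% of all genes had groups that do not overlap. The other assembly factors with groups apart were Sdhaf3 and Uqcc2, with KO higher, and Cox17, with KO lower. Of 13 regulators of mitochondrial biogenesis, 7 were above 0 and 6 below (median 0.073). Nrf1, which encodes nuclear respiratory factor 1, had the lowest change of that list (-0.38, SE 0.24), at 976, 825 and 1162 in KO and 966, 1531 and 1410 in WT, which overlap, and Ppargc1b had the highest (0.21).

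Enzymes of the tricarboxylic acid cycle and pyruvate dehydrogenase had 7 of 15 above 0 (median -0.0021), from -0.085 for Pdha1 to 0.13 for Suclg2. Of 16 listed glycolysis genes, 13 had a probe set of 1 symbol and were tested, and Gapdh, Eno1 and Gpi1 were not among them. Of the 13, 2 were above 0 and 11 below (median -0.068). An unadjusted limma p under 0.05 was found for 2 of the 13, against 4.69% of all genes. Pfkl, a phosphofructokinase, had 22775, 21163 and 19555 in KO and 26080, 22809 and 23247 in WT (log2 change -0.18, SE 0.08, limma adjusted p = 0.986). Pkm, pyruvate kinase, was named after its values were seen and had a change of -0.17 (SE 0.07). The highest of the list was Aldoc, the brain aldolase, at 0.061.

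The mean level of the glycolysis genes was 0.059, -0.091 and -0.078 in KO and 0.025, 0.015 and 0.070 in WT. That of the tricarboxylic acid cycle genes was 0.071, -0.047 and -0.0051 in KO and -0.023, 0.016 and -0.012 in WT. KO 1 was the highest KO array in both lists and KO 2 the lowest, the order seen in the respiratory complexes. Of 7 tissue-restricted isoforms of complex IV subunits, 5 passed the filter on dim probe sets, with intensities from 709 (Cox8c) to 4458 (Cox8b). Of these 5, 4 had a change above 0 and 1 below. The changes ran from -0.26 for Cox6a2 to 0.79 (SE 0.39) for Cox8b, both isoforms of heart and skeletal muscle. Of 13 mitochondrially encoded subunits 1 was named in the annotation, ND5 of complex I, with a change of -0.076.

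**Figure D4:**
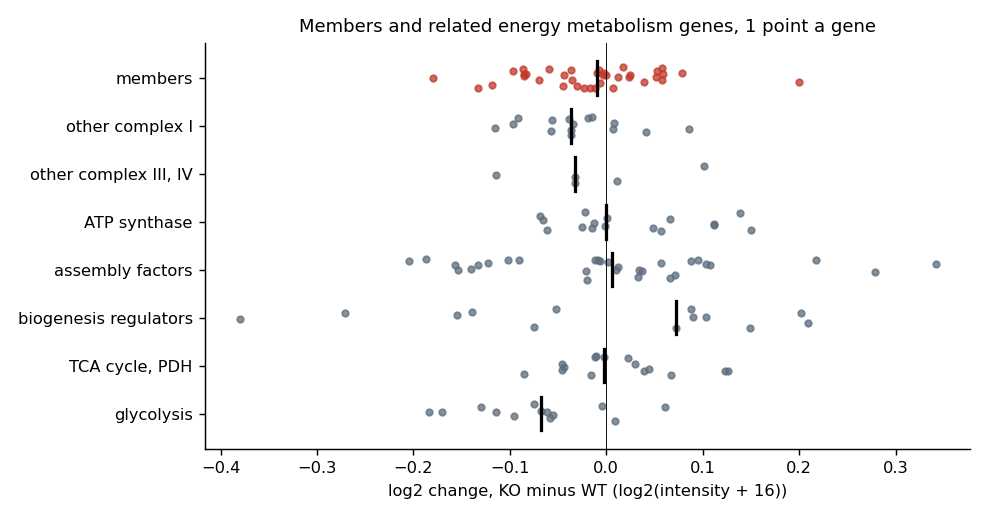
Log2 change, KO minus WT, of the 37 members (red) and of 7 lists of related energy metabolism genes (grey), 1 point a gene, with the median of each list as a black line and vertical scatter for visibility alone. The medians lie between -0.068 for glycolysis and 0.073 for the biogenesis regulators, and 0 of the genes shown passed the limma threshold.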

How the data were processed

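Each of the 6 deposited columns holds 1 linear intensity value per probe set; what software the authors used is not given. Scaling to one level had been done before deposit, since the mean with 2% trimmed from either end is 2500.0 on every array. The 64 control probe sets were dropped from 45101; of the others the platform annotation names 1 gene for 34945, several for 932 and none for 9160. Tests used log2(intensity + 16), which understates changes of dim probe sets, and left out the dimmest 40% (6-array mean below 359.6). limma 3.58.1 in R 4.3.3 compared KO with WT, with no covariate and a prior variance that follows intensity, and p-values were Benjamini-Hochberg adjusted over 27022 probe sets. The number of arrays limits the precision. The fit was tested on simulated data. Of 50 probe sets for each built-in log2 change, it called 11 at 0.5, 25 at 1, 25 at -1 and 42 at 2. It missed the pass rule first set, which asked how many of the larger built-in changes it called, so that rule was replaced by one on the estimated sizes and the share of false calls, which it met; the fit itself was not altered.

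The members and lists were chosen with earlier results of these data known. Members named with array values were those with an unadjusted p under 0.05 at a tested probe set or with groups apart at the probe set that stands for the gene, complex II, Cycs, Ndufa4 and the extremes of each complex; related lists are named by their extremes. Other members are given by their change, except that Ndufs4 is also given with array values at 1418117_at. That falls outside the rule, and Ndufs4 was not among the named members followed across settings. The promoters printed, the motifs, the split of complex I into core and accessory subunits and the low-p probe sets followed across settings were chosen after values had been seen. Alternatives covered pseudocounts (1 and 64), filters, scaling, the variance model, weights per array, a block for the replicate number, arrays left out, and the choice of probe set.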

Additional observations from a re-analysis of the deposited data

How the results depend on the processing

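Under 18 alternatives the 15 named members stayed short of the limma threshold in all 269 comparisons that could be made, 254 of which kept the sign, and 0 member probe sets were called under any alternative that gives calls per probe set. The probe set of Ndufs8 with the lowest p, 1423907_a_at, kept its sign in 16 of 16, with adjusted p from 0.0680 to 1.00 in limma. Leaving out 1 array gave 0 to 3 higher and 3 to 4 lower probe sets over the whole array (0 and 3 with all arrays), 4 to 12 member probe sets at an unadjusted p under 0.05, 8 to 23 members above 0, and median log2 changes of -0.049 to 0.019 for all members, -0.062 to 0.015 for complex I, -0.036 to 0.038 for complex II, -0.053 to 0.064 for complex III and -0.054 to 0.037 for complex IV. The 12 were found without KO replicate 1, where 10.7% of all probe sets had an unadjusted p under 0.05, and the 4 without KO replicate 3. Without replicate 1 of both groups there were 7 higher and 6 lower probe sets, 13 members' probe sets at an unadjusted p under 0.05 (17.6%, against 10.4% of all), and medians of -0.075 for the members and -0.090 for complex I. A variance model without a trend gave 1 lower probe set and 4 members' probe sets at an unadjusted p under 0.05 (5.41%, against 4.36% of all), and array weights gave 11 (14.9%, against 7.99% of all). The mean of a gene's tested probe sets gave a complex II median of 0.068. Leaving out probe sets ending in _s_at or _x_at left 35 members, without Ndufa2 and Cox7c. The cause of these changes was not tested. With the replicate block there were 4 higher and 4 lower probe sets, 0 members called, 8 members' probe sets at an unadjusted p under 0.05 (10.8%, against 5.39% of all) and a members' median of -0.0095; no label pairs the samples, and deviations of same-numbered arrays correlated at 0.23, 0.050 and 0.088. WT 3 correlated best with KO 2 (0.11), not with its own number. The replicate block thus changed no member's call.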
